A study of Sus scrofa with 15 samples.

Results

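The genes described here encode growth factors that the oocyte secretes or is known to receive, together with receptors and an inhibitor of these factors. The 10 members were *GDF9*, *BMP15*, *BMP6*, *FGF8* and *FGF10* (ligands), *KIT*, *BMPR2*, *BMPR1B* and *TGFBR1* (receptors) and *FST* (an inhibitor). They were chosen by symbol from the 22516 genes listed for pig, all 10 were found, and 8 passed the filter on low counts that left 13222 genes to test. *FGF8* and *FGF10* did not pass it and are described by their counts.

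RNA was measured in pig oocytes, with 15 oocytes in each of 15 libraries, and cDNA was made with the SMART-Seq HT kit. The GV group (germinal vesicle, 5 libraries) was taken from fresh ovarian follicles with no culture. The MII group (metaphase II, 5 libraries) had a first polar body after in vitro maturation (IVM) of the cumulus oocyte complexes, for 44 h by the sample labels and for a range of times ending there by the study's methods, and the Damaged group (5 libraries) had the same culture and showed no polar body. All oocytes came from sow ovaries collected at an abattoir, and ages are not given in the sources used here. The Damaged group was therefore set only by the absent polar body, which does not separate oocytes arrested at different points of meiosis. Each library pools oocytes, so a lower value in fewer oocytes and a lower value in every oocyte cannot be told apart. By the study's methods the IVM medium held the gonadotrophins PMSG and HCG, EGF, insulin, cysteamine and sow follicular fluid. GV oocytes were not cultured, so effects of the stage and of this culture cannot be told apart. Cumulus cells were removed with hyaluronidase in all groups.

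Background helps to read the names. GDF9 and BMP15 are related ligands of the TGF-beta family that the mammalian oocyte secretes and that act on the surrounding cumulus and granulosa cells. A ligand of this family brings together a type II receptor, such as BMPR2, and a type I receptor, such as BMPR1B or TGFBR1, which then phosphorylates SMAD proteins that enter the nucleus. Follistatin, the product of *FST*, binds activins and some BMPs and keeps them from their receptors, while KIT is a receptor tyrosine kinase on the oocyte that binds KIT ligand from granulosa cells.

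All members had a position in RefSeq on the Sscrofa11.1 build. *GDF9* lies at chr2:135181494-135184451, *BMP15* at chrX:44613122-44620575 and *BMP6* at chr7:5058817-5208868. *FGF8* lies at chr14:112808215-112814225 and *FGF10* at chr16:28695465-28779953, where it overlaps a long non-coding RNA gene (LOC102161640). *KIT* lies at chr8:41402334-41492306, *BMPR2* at chr15:105971577-106132496, *BMPR1B* at chr8:124536648-125035841, *TGFBR1* at chr1:240842735-240918267 and *FST* at chr16:32806341-32811382. Counts were made per transcript, and strand was not stated to have been used.

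Some facts of the series touch each result below. The totals of estimated counts were 6.40 to 14.5 M in GV, 12.9 to 23.6 M in MII and 15.9 to 19.6 M in Damaged libraries. GV replicate 3 had the lowest total (6.40 M), its oocyte markers summed to 13794 TPM where the other GV libraries had 23536 to 26544, and it was left out of the tests, so GV had n = 4. In the deposited gene table, 7 of 15 columns carried the name of another library than the one with the same total, so gene counts were computed from the transcript file of each labelled library. With those labels, 15 of 15 libraries were most similar to another library of their own kind, fresh or cultured. Within the cultured libraries, the nearest had the same label for 3 of 10, so which of the MII and Damaged labels are right could not be checked from the data. Results on the 8 libraries with agreeing names (2 GV, 3 MII and 3 Damaged) are given where a call differs.

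Both TPM and normalised CPM are used below, and they differ between stages. TPM, the transcript abundance from Kallisto, divides by transcript length and has the same sum in each library, and serves here to compare genes. Normalised CPM is a count scaled to a common library total and by TMM factors, which set the bulk of genes to a common level, and serves to compare groups. The TMM factors were 1.35 to 1.73 in GV and 0.794 to 0.922 in cultured libraries. With them the 13222 genes tested had a median shift of -0.17 on the log2 scale (MII versus GV) and -0.14 (Damaged versus GV), and on library sizes alone of -1.09 and -1.01. A member is said to have risen or fallen where limma-voom gave an FDR under 0.01, and to be a differentially expressed gene (DEG) where the absolute log2 fold change was also over 2. The study states that oocytes stop transcription once meiosis resumes. Whether a rise or fall reflects the amount of a message or its capture in the library was not tested.

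Both oocyte ligands were among the most abundant messages of GV oocytes. *BMP15* had a mean of 1493 TPM ± 469 (SD, n = 4) and *GDF9* 1121 ± 95.01, ranking between place 50 and 183 and between place 92 and 147 of all genes in the GV libraries. These levels overlapped, as *BMP15* was above *GDF9* in 3 of 4 libraries. *BMP6* followed at 34.3 ± 14.5 TPM, then *FST* (15.4 ± 3.67), *KIT* (15.3 ± 6.03), *BMPR2* (12.7 ± 2.48) and *BMPR1B* (10.9 ± 2.83), and from *BMP6* to *BMPR1B* neighbours in the order overlapped. *TGFBR1* (4.82 ± 1.22), *FGF8* (0.739 ± 0.203) and *FGF10* (0.244 ± 0.0867) were each below the one before without overlap.

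The order changed in MII oocytes. *BMP15* (588 TPM ± 64.2, n = 5) was above *GDF9* (87.2 ± 24.3) in 5 of 5 libraries without overlap, and *FST* came next at 20.3 ± 3.14. *BMPR2* (9.81 ± 1.95) overlapped *BMPR1B* (7.79 ± 0.970), and *KIT* (4.91 ± 0.561) overlapped *BMP6* (4.30 ± 0.583), which had come right after *GDF9* in GV. *TGFBR1* (0.763 ± 0.104), *FGF10* (0.121 ± 0.0174) and *FGF8* (listed at 0) closed the order. Damaged oocytes had the same sequence from *BMP15* (704 TPM ± 199.5, n = 5) through *GDF9* (92.4 ± 20.0) and *FST* (23.3 ± 2.48) to *TGFBR1* (1.22 ± 0.225). There *BMPR2* (9.74 ± 0.964) overlapped *BMPR1B* (7.23 ± 2.09), which overlapped *KIT* (6.29 ± 2.11), which overlapped *BMP6* (4.70 ± 0.962), and *TGFBR1* lay below *BMP6* without overlap.

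**Figure D1:**
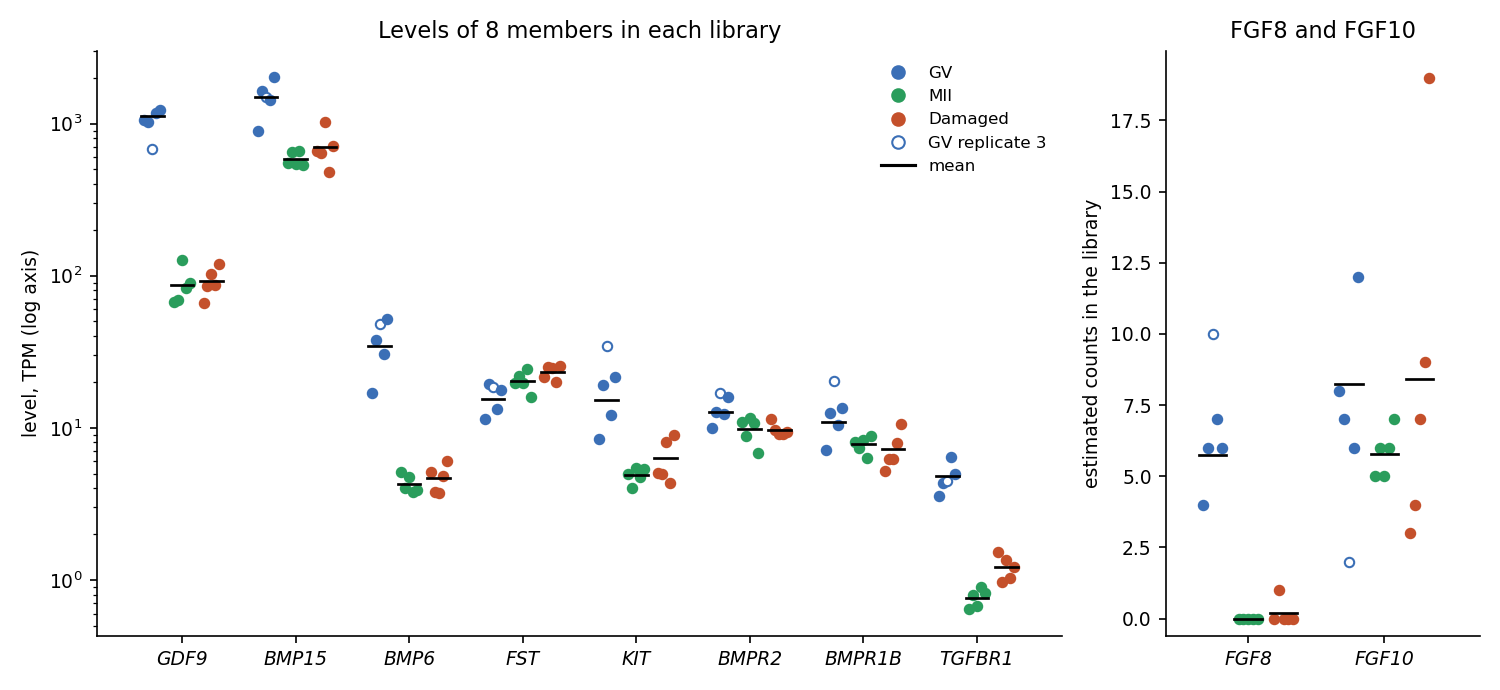
Level of each member in each library. The left panel gives TPM on a log axis for 8 members and the right panel the estimated counts of *FGF8* and *FGF10*; points are libraries, bars are group means without GV replicate 3 (open points). *GDF9* lies above 1000 TPM in the 4 GV libraries used and at or below 127 TPM in all 10 cultured libraries, while *FST* is the one member whose mean TPM is higher after culture.

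The first comparison asks which of these messages differ between GV and MII oocytes. *GDF9*, *BMP6* and *TGFBR1* fell, *FST*, *BMPR2* and *BMPR1B* rose, and *BMP15* and *KIT* did not pass the test. The fall of *GDF9* was 6.38-fold, and with TMM factors *GDF9* was the only DEG among them. So 3 of 8 members tested (37.5%) rose and 3 (37.5%) fell, beside 28.2% and 34.2% of all genes tested, shares near the background. As DEGs, 1 of 8 (12.5%) was lower, beside 17.0% of all genes.

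In Damaged oocytes the same question gave *GDF9*, *BMP6* and *TGFBR1* lower and *FST* and *BMPR2* higher. This was 3 of 8 (37.5%) lower beside 33.4% of all genes and 2 of 8 (25.0%) higher beside 28.0%. With TMM factors 1 was a DEG and lower, *GDF9*, beside 16.4%. The comparisons of MII and of Damaged oocytes share the GV libraries, so their values below stand side by side and do not support each other.

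*GDF9* was at 2316, 1735, 2156 and 1831 normalised CPM in GV replicates 1, 2, 4 and 5. It was at 255, 266, 426, 316 and 326 in MII replicates 1 to 5 and at 258, 322, 366, 310.4 and 372 in Damaged replicates 1 to 5. The lowest GV library was thus above the highest cultured library by a wide margin, and GV replicate 3, left out, was at 1151. The log2 fold change was -2.67 ± 0.15 (SE, limma-voom FDR 1.80e-11) in MII and -2.63 ± 0.15 (FDR 2.33e-11) in Damaged oocytes. Its rank by TPM moved from 92 to 147 in GV libraries to 984 to 1476 in MII and 1036 to 1454 in Damaged libraries.

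*BMP15* was at 1081, 1537, 1443 and 1664 normalised CPM in GV, at 1152, 1389.5, 1001, 1394 and 1082 in MII and at 1409, 1321, 2016, 955 and 1228 in Damaged libraries. The groups overlapped throughout, with the highest and the lowest value both in Damaged oocytes. The log2 fold changes were -0.24 (95% interval -0.62 to 0.13, limma-voom FDR 0.228) and -0.07 (-0.45 to 0.30, FDR 0.733), close to the medians of all genes. With a filter of 10 CPM, under which fewer genes set the TMM factors, the value in MII was -0.57 with an FDR of 0.00863, past the threshold, and in Damaged oocytes -0.38 (FDR 0.0659). On library sizes alone it fell with the bulk of genes, by 1.15 and 0.94 on the log2 scale (FDR 2.11e-05 and 0.000177).

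*BMP6*, a BMP ligand made by oocytes and by other cells, was at 25.5, 44.5, 38.9 and 53.3 normalised CPM in GV libraries. It was at 13.4, 10.7, 10.9, 9.86 and 9.90 in MII and at 13.8, 9.79, 9.19, 11.9 and 12.9 in Damaged libraries. Each cultured library was below each GV library, although the GV libraries spread over a wide range. *BMP6* fell by 1.86 on the log2 scale in MII (SE 0.20, limma-voom FDR 9.48e-08) and fell by 1.79 in Damaged oocytes (SE 0.20, FDR 1.50e-07).

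Of the FGF ligands, *FGF8*, which oocytes of some mammals secrete, had 4, 6, 7 and 6 counts in the GV libraries used and 10 in GV replicate 3. It had 0 counts in each MII library and 0, 1, 0, 0 and 0 in the Damaged libraries. Against a floor of 3 counts over the MII group, GV was 12.3-fold higher on library sizes and 6.52-fold with TMM factors. With the counting error of both groups, the 95% counting interval of GV over MII began at 9.24 and at 4.89. A count of 0 allows a level of up to 0.127 to 0.233 CPM in an MII library, so a lower level was not detectable at this depth. Against Damaged oocytes the ratio was 36.7 on library sizes (95% counting interval 5.96 to 1512) and 20.0 with TMM factors (3.25 to 824). The exact permutation p, two-sided over libraries, was 0.00794 in each case, the smallest that 4 against 5 libraries can give.

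*FGF10*, a ligand of the receptor FGFR2 that oocytes and theca cells are known to make, had 33 counts over the 4 GV, 29 over the 5 MII and 42 over the 5 Damaged libraries. On TMM factors the ratio of GV to MII was 0.968 (95% counting interval 0.570 to 1.65, exact permutation p = 0.603) and that of GV to Damaged 0.684 (0.420 to 1.10, p = 0.619). On library sizes GV was 1.83-fold higher than MII (1.08 to 3.12, exact permutation p = 0.00794). Damaged replicate 5 alone held 19 of the 42 counts. These intervals cover counting error only.

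Among the receptors, *TGFBR1*, the type I receptor through which GDF9 signals, was at 11.07, 10.4, 16.8 and 10.6 normalised CPM in GV libraries. It was at 3.47, 4.36, 3.20, 4.82 and 4.24 in MII and at 8.43, 5.19, 6.78, 5.26 and 5.37 in Damaged libraries. The 3 groups did not overlap: GV was highest, Damaged lay between, and MII was lowest. *TGFBR1* fell by 1.56 on the log2 scale in MII (SE 0.21, limma-voom FDR 1.74e-06) and fell by 0.97 in Damaged oocytes (SE 0.20, FDR 0.000232).

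*BMPR2*, the type II receptor of GDF9 and BMP15, went the other way on TMM factors. It was at 36.8, 36.6, 38.1 and 40.4 normalised CPM in GV, at 70.4, 57.7, 66.0, 68.7 and 42.6 in MII and at 74.9, 61.7, 54.9, 54.8 and 49.3 in Damaged libraries. The 4 GV libraries used lay close together and below every cultured library, the nearest being MII replicate 5, while GV replicate 3, left out, was at 49.0, above MII replicate 5 and just below the lowest Damaged library. With all 5 GV libraries the log2 fold changes were 0.59 (limma-voom FDR 0.00309) and 0.55 (FDR 0.00523). With the 4 libraries they were 0.66 ± 0.16 (SE, limma-voom FDR 0.00108) and 0.62 ± 0.16 (FDR 0.00183). On library sizes they were -0.25 in both comparisons (FDR 0.164 and 0.170), so the sign depended on the scaling. Neither call held on the 8 libraries with agreeing names, with 0.59 (FDR 0.0379) and 0.47 (FDR 0.0983), or with a filter of 10 CPM, with 0.33 (FDR 0.0646) and 0.31 (FDR 0.0841).

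*BMPR1B*, a type I BMP receptor used by BMP15, was at 20.1, 27.3, 24.5 and 26.0 normalised CPM in GV and at 39.3, 36.5, 35.8, 30.7 and 41.4 in MII libraries. Damaged libraries were at 26.0, 29.9, 28.5, 36.1 and 42.0, overlapping GV, and GV replicate 3 was at 44.2, above all of them. *BMPR1B* rose by 0.58 on the log2 scale in MII (SE 0.16, limma-voom FDR 0.00291), while in Damaged oocytes the change was 0.40 (FDR 0.0329). On library sizes the values were -0.33 (FDR 0.124) and -0.47 (FDR 0.0318), with the sign turned. The call in MII was lost with all 5 GV libraries (0.43, FDR 0.0466), on the 8 libraries with agreeing names (0.53, FDR 0.0617) and with a filter of 10 CPM (0.25, FDR 0.154).

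*KIT* was at 22.2, 38.6, 26.6 and 38.4 normalised CPM in GV, at 22.6, 18.7, 21.7, 21.4 and 23.4 in MII and at 23.3, 22.3, 34.4, 18.5 and 33.3 in Damaged libraries. The GV libraries were spread so widely that the lowest, replicate 1, lay within the MII range, and GV replicate 3 stood at 70.5. The log2 fold changes were -0.51 (95% interval -0.93 to -0.09, limma-voom FDR 0.0300) in MII and -0.25 (-0.67 to 0.16, FDR 0.262) in Damaged oocytes. On library sizes *KIT* fell by 1.42 and 1.12 (FDR 3.00e-05 and 0.000298). The value in MII passed the threshold without GV replicate 1 (-0.65, FDR 0.00655) and with a filter of 10 CPM (-0.84, FDR 0.00121).

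*FST* stood apart from the other members as the one that was higher on both scalings. It was at 6.69, 8.74, 6.48 and 7.03 normalised CPM in GV, at 20.0, 22.5, 17.7, 24.6 and 15.5 in MII and at 22.3, 25.0, 23.4, 18.9 and 21.1 in Damaged libraries. The highest GV library was below the lowest cultured library. *FST* rose by 1.47 on the log2 scale in MII (SE 0.18, limma-voom FDR 3.63e-07) and by 1.62 in Damaged oocytes (SE 0.17, FDR 8.98e-08). On library sizes it rose by 0.56 (FDR 0.00927) and 0.74 (FDR 0.00101).

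Without overlap between the libraries used, 3 of 8 members lay higher in MII and 3 lower, beside 27.0% and 33.0% of all genes, and 2 lay higher in Damaged and 3 lower, beside 26.6% and 31.8%. On library sizes, 1 of 8 members rose in each comparison, beside 10.9% (MII) and 11.2% (Damaged) of all genes, and 5 fell, beside 57.6% and 56.0%. The direction of *GDF9*, *BMP6*, *TGFBR1* and *FST* and their side of the FDR threshold held under both scalings. Scaled by library sizes, where the median of all genes was at -1.09 and -1.01, more members were DEGs beside *GDF9*. These were *BMP6* (-2.77 in MII and -2.65 in Damaged oocytes) and *TGFBR1* (-2.48 in MII).

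**Figure D2:**
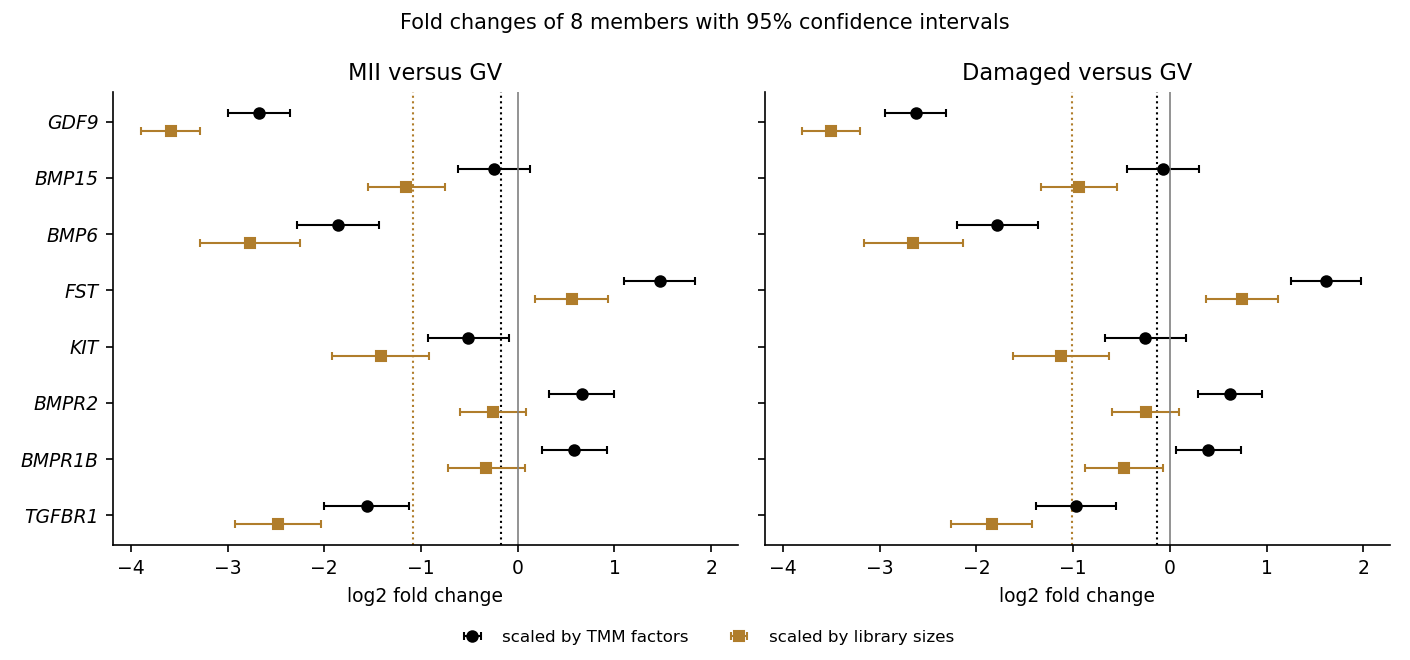
Log2 fold change of each member over GV, with 95% confidence intervals, in MII (left) and Damaged oocytes (right). Black points are scaled by TMM factors and brown squares by library sizes; dotted lines mark the median of all genes under each scaling. *GDF9*, *BMP6* and *TGFBR1* lie left of 0 and *FST* right of 0 under both, while *BMPR2* and *BMPR1B* change sign.

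Because the scalings differ, each member was also set against *BMP15* within its own library, a ratio of TPM that needs no scaling between libraries. This measure was added after the data were seen, with 21 exact permutation tests, two-sided and not adjusted. A change of *BMP15* itself moves every ratio. Its log2 fold changes in MII and Damaged oocytes were -0.24 and -0.07 with TMM factors and -1.15 and -0.94 on library sizes. The ratio therefore cannot tell which scaling is right. *BMP15* was 0.844, 1.60, 1.21 and 1.64 times *GDF9* in GV replicates 1, 2, 4 and 5. It was 8.16, 9.43, 4.25, 7.98 and 6.01 times *GDF9* in MII and 9.88, 7.42, 9.98, 5.56 and 5.97 times in Damaged libraries. GV replicate 1 was thus the one library with more *GDF9* than *BMP15*, and no cultured library came near the GV range.

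Relative to *BMP15*, *GDF9* was 5.39-fold lower in MII and 5.88-fold lower in Damaged oocytes than in GV, and *BMP6* was 3.04-fold and 3.28-fold lower. *FST* was 3.27-fold and 3.22-fold higher on this measure. The exact permutation p was 0.00794 for each of these, the smallest the design allows. *TGFBR1* was 2.54-fold (exact permutation p = 0.00794) and 1.87-fold lower (p = 0.0159), and *BMPR2* 1.88-fold (p = 0.00794) and 1.62-fold higher (p = 0.0317). The latter did not keep a p under 0.05 in 7 of the 9 sets that leave out 1 library. *BMPR1B* was 1.78-fold higher in MII (exact permutation p = 0.0159) and 1.38-fold higher in Damaged oocytes (p = 0.214). *KIT* was 1.20-fold and 1.14-fold lower, with overlap (exact permutation p = 0.198 and 0.310).

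**Figure D3:**
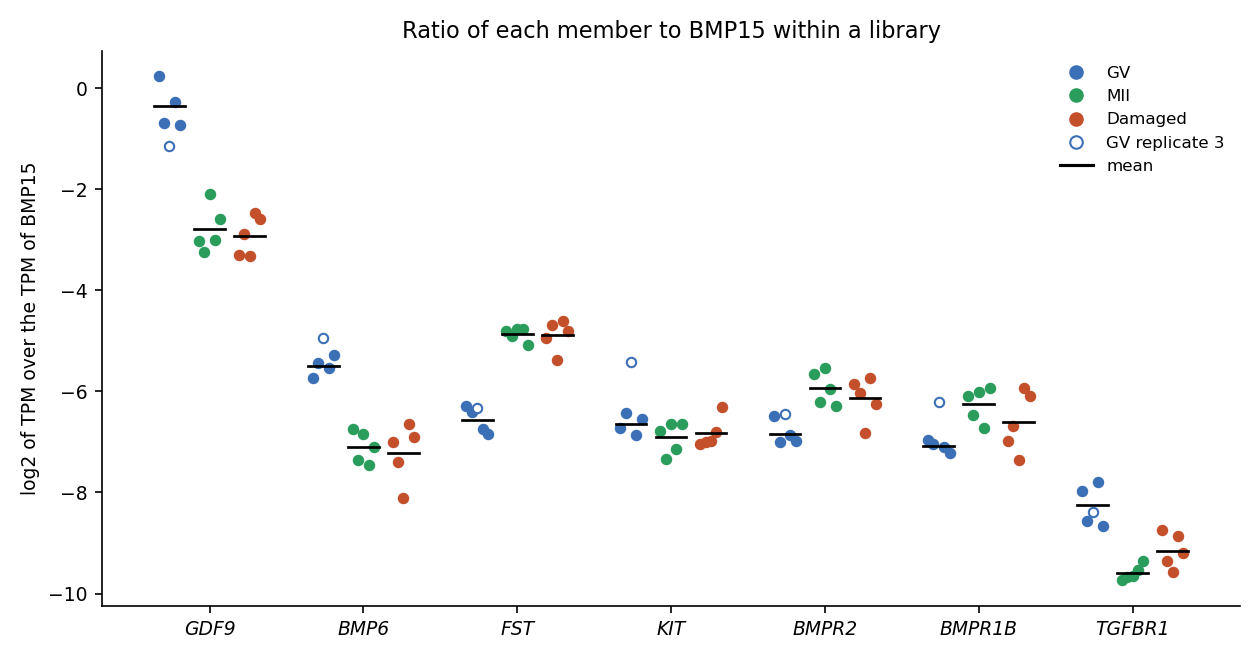
Ratio of each member to *BMP15* in each library, as the log2 of the ratio of TPM. Points are libraries, bars are group means without GV replicate 3 (open points). *GDF9*, *BMP6* and *TGFBR1* lie lower and *FST* higher in the MII and Damaged libraries than in the 4 GV libraries used, without overlap.

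The last comparison asks whether oocytes with and without a polar body differ after the same culture. No member passed in MII versus Damaged: 0 of 8, beside 0% of all genes, and the smallest limma-voom FDR of any gene was 0.99989. At an unadjusted p under 0.05 there was 1 of 8 members, *TGFBR1*, beside 1.47% of all genes (195 of 13222). The edgeR and DESeq2 tests also called 0 genes.

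*TGFBR1* was the member with the largest difference, at 4.02 ± 0.668 normalised CPM in MII and 6.21 ± 1.41 in Damaged oocytes (SD, n = 5 each). All MII libraries lay below all Damaged libraries, which held for 0.174% of all genes, and the opposite order held for 0.0983%. The log2 fold change was -0.59 (95% interval -1.05 to -0.14), with an unadjusted limma-voom p of 0.0138 and an FDR of 0.99989, so the difference did not pass the correction. On the 8 libraries with agreeing names it was -0.50 (limma-voom FDR 0.99993). Relative to *BMP15* the ratio was 1.36-fold lower in MII (exact permutation p = 0.0317), with overlap.

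For the other members the intervals bound what the libraries could show. The log2 fold change of MII over Damaged was -0.05 for *GDF9* (95% interval -0.36 to 0.26), -0.17 for *BMP15* (-0.53 to 0.18) and -0.07 for *BMP6* (-0.52 to 0.37). It was -0.26 for *KIT* (-0.67 to 0.16), 0.04 for *BMPR2* (-0.28 to 0.35), 0.19 for *BMPR1B* (-0.13 to 0.50) and -0.15 for *FST* (-0.47 to 0.17). Each interval includes 0, and none shows that the groups are alike.

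**Figure D4:**
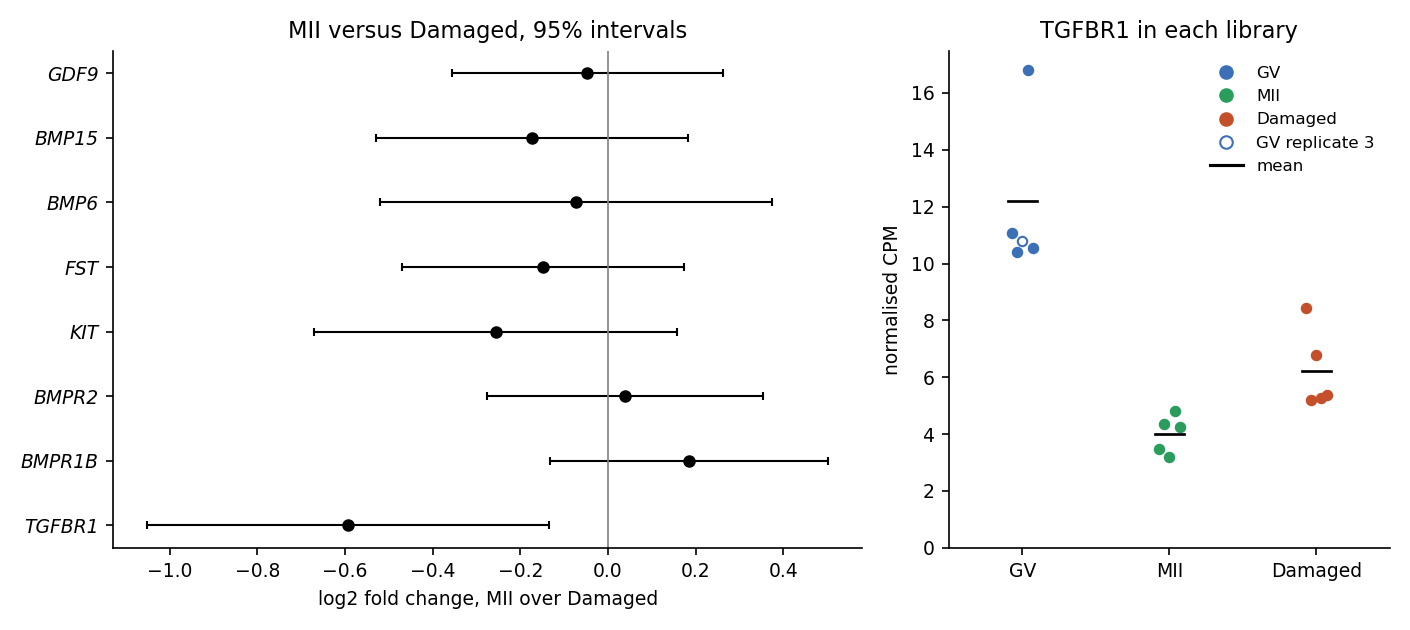
MII versus Damaged oocytes. The left panel gives the log2 fold change of each member with its 95% confidence interval (TMM factors), and the right panel the normalised CPM of *TGFBR1* by library, with group means as bars. The interval of *TGFBR1* is the one that excludes 0 before adjustment, and its MII libraries (3.20 to 4.82) lie below its Damaged libraries (5.19 to 8.43).

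Transcripts were compared for the members with more than 1 that had a count. *KIT*, *BMPR2*, *BMPR1B* and *FST* had 2 each, and in each gene 1 transcript held a mean of at least 97.1% of the TPM, so no share was tested. For *KIT* the shorter transcript (ENSSSCT00000078263.2, 3006 bases) held 0 to 0.401% in GV, 2.51 to 3.81% in MII and 1.72 to 7.71% in Damaged libraries. Behind these shares stood at most 1.27 estimated counts in a GV library and 3.03 to 21.2 in a cultured one. *GDF9*, *BMP15*, *BMP6*, *TGFBR1*, *FGF8* and *FGF10* were counted on a single transcript each.

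The other genes of these pathways came from 10 lists, of which 104 genes were tested. Over all lists, 30 rose (28.8%) and 29 fell (27.9%) in MII, beside 28.2% and 34.2% of all genes, with a median log2 fold change of -0.13. In Damaged oocytes 28 rose (26.9%) and 26 fell (25.0%), beside 28.0% and 33.4% of all genes, with a median of 0.08. The counts of each list below stand beside these same shares of all genes, and nothing particular to a list is read from them. In MII versus Damaged 0 of 104 passed in limma-voom, 1 had an unadjusted p under 0.05, and edgeR and DESeq2 called 0. On library sizes 8 rose and 50 fell in MII, beside 10.9% and 57.6% of all genes. For the genes named below, falls were larger and rises smaller on library sizes, and a rise whose call was lost there is given with its value.

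Of the other TGF-beta family ligands, 2 of 7 tested rose in MII and 2 in Damaged oocytes, and 0 fell by limma-voom, edgeR or DESeq2, with 0 (MII) and 2 (Damaged) lower at an unadjusted p under 0.05. *BMP4* rose by 0.88 and 1.15 on the log2 scale (limma-voom FDR 0.00227 and 0.000179) with TMM factors. On library sizes its log2 fold changes were -0.04 (FDR 0.893) and 0.27 (FDR 0.294), with the sign in MII turned and neither call kept, and its mean TPM was 21.3 ± 2.02 in GV, 19.7 ± 7.16 in MII and 24.1 ± 6.64 in Damaged libraries.

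Of the other receptors and co-receptors, 2 of 10 fell in each comparison and 0 rose by limma-voom, edgeR or DESeq2, with 0 higher at an unadjusted p under 0.05. These were *ACVRL1*, a type I receptor best known from endothelial cells (log2 fold changes -2.62 and -3.17, at 0 to 3.26 counts in a cultured library), and *ACVR1*, a type I receptor for several BMPs (-0.89 and -0.97). The mean TPM of *ACVR1*, which TMM factors do not scale, was 22.3 ± 4.54 in GV, 5.85 ± 0.965 in MII and 5.63 ± 0.693 in Damaged libraries. Of the other inhibitors and binding proteins, 2 of 9 rose and 4 fell in each. The log2 fold changes in MII and Damaged oocytes were -2.64 and -2.45 for *FSTL3*, a relative of follistatin, -1.60 and -1.56 for *GREM1*, a BMP antagonist, and -1.91 and -2.86 for *TWSG1*, another BMP-binding protein. *TWSG1* had 0 to 8.85 counts in a Damaged library, and its normalised CPM there (0 to 0.597) overlapped GV (from 0.520). Thus *FSTL3* fell where *FST* rose.

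Of the SMAD proteins and their regulators, 6 of 15 (40.0%) were higher and 5 (33.3%) lower in each comparison. *SMAD5*, a SMAD of the BMP branch, was at 104, 97.9, 129.8 and 99.6 normalised CPM in GV libraries 1, 2, 4 and 5 and at 636 to 884 in MII and 541 to 855 in Damaged libraries. It rose by 2.77 on the log2 scale in both comparisons (SE 0.15 each), and by 1.86 in MII on library sizes. The log2 fold changes were -2.42 and -1.90 for *SMAD3*, a SMAD of the TGF-beta and activin branch, and -3.12 and -2.75 for *SMURF1*, a ubiquitin ligase that acts on SMADs. Of the SMAD target genes, 2 of 5 rose. *ID3*, a transcriptional inhibitor induced by BMPs, rose by 1.61 and 1.73 with TMM factors. Its mean TPM, which TMM factors do not scale, was 4166 ± 842 in GV, 6127 ± 1018 in MII and 6805 ± 519 in Damaged libraries. *PTGS2*, a prostaglandin synthase, rose by 1.26 and 1.31 at under 1 TPM. On library sizes *PTGS2* was at 0.33 (FDR 0.334) and 0.42 (FDR 0.212).

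The enzymes that process secreted proproteins had 2 of 9 higher and 3 lower in MII, and 2 higher and 2 lower in Damaged oocytes. All 3 named by the rule belong to the signal peptidase complex: *SPCS3* (log2 fold changes -3.09 and -3.12) and *SEC11C* (-1.16 and -1.13) fell, and *SEC11A* rose by 1.44 in both comparisons. On library sizes *SEC11A* was at 0.52 in MII (FDR 0.0113), no longer past the threshold, and at 0.56 in Damaged oocytes (FDR 0.00688).

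Of the other FGF ligands, 3 of 9 rose and 1 fell in each comparison. *FGF20* rose by 2.19 and 2.16 and *FGF21* by 1.82 and 2.11, the latter at under 1 TPM, while *FGF9* fell (-1.72 and -1.34). The mean TPM of *FGF9*, which TMM factors do not scale, was 20.9 ± 4.09 in GV, 3.04 ± 0.848 in MII and 4.22 ± 1.21 in Damaged libraries. On library sizes *FGF21* was at 0.91 (FDR 0.0976) and 1.24 (FDR 0.0248). Of the FGF receptors and signalling partners, 4 of 9 rose and 3 fell in MII, and 3 rose and 2 fell in Damaged oocytes. *SPRY2*, an inhibitor of receptor tyrosine kinase signalling, fell (log2 fold changes -5.09 and -6.13) from 4.64 to 15.8 normalised CPM in GV libraries to at most 0.376 in cultured ones. Of the adaptors of FGF receptors, *FRS3* fell (-4.52 and -4.08), and *FRS2* rose by 1.20 and 1.08. The mean TPM of *FRS3* was 3.14 ± 1.69 in GV, 0.0816 ± 0.0827 in MII and 0.0792 ± 0.0460 in Damaged libraries. With values so near 0 after culture, the size of its fall is uncertain. On library sizes *FRS2* was at 0.29 (FDR 0.157) and 0.21 (FDR 0.300).

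For the KIT ligand and signalling partners, 6 of 19 rose and 6 fell in MII, and 6 rose and 5 fell in Damaged oocytes. The log2 fold changes were -2.78 and -2.70 for *GAB2*, an adaptor protein, -1.45 and -1.03 for *LYN*, a SRC family kinase, and 1.50 and 1.34 for *SOS2*, an exchange factor for RAS. On library sizes *SOS2* was at 0.59 (FDR 0.00620) and 0.47 (FDR 0.0246), the latter no longer past the threshold. Of the remaining oocyte secreted and EGF network genes, 3 of 12 rose and 5 fell in MII, and 2 rose and 5 fell in Damaged oocytes. *OOSP2*, an oocyte secreted protein gene, rose by 2.46 and 2.38 with TMM factors. Its mean TPM, which TMM factors do not scale, was 3163 ± 1593 in GV, 7836 ± 965 in MII and 7750 ± 1414 in Damaged libraries. *EREG*, an EGF-like ligand (-2.17 and -2.05), and *IGF1R*, the receptor of IGF1 (-1.99 and -1.70), fell.

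**Figure D5:**
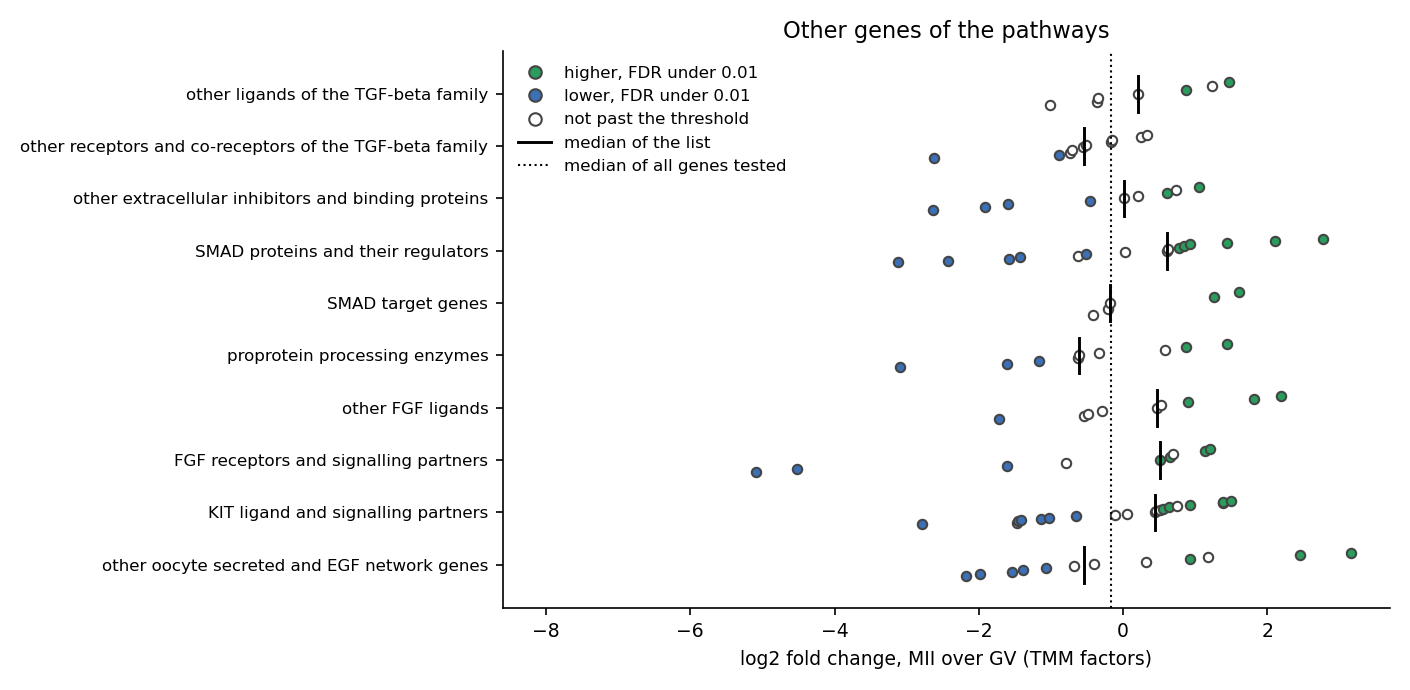
Log2 fold change of MII over GV (TMM factors) for the 104 other pathway genes tested, by list. Filled points passed an FDR of 0.01, black bars are the medians of the lists, and the dotted line is the median of all genes tested. Most lists hold genes on both sides, and *SPRY2* (-5.09) and *FRS3* (-4.52), both with a mean near 0 TPM in MII, lie farthest to the left.

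Sums of the markers of other cells were low beside those of the oocyte markers, and some differed between GV and cultured libraries. The oocyte markers summed to 23536 to 26544 TPM in the 4 GV libraries, 30791 to 34119 in MII and 29804 to 35717 in Damaged libraries, with all 13 measured markers present in each group. The highest of them, *BTG4*, had a mean of 6681 TPM in GV, 23829 in MII and 23328 in Damaged libraries. This 1 gene thus made up most of the sum after culture. Most of the single oocyte markers went the other way, with 7 of 13 lower and 2 higher in MII, 8 lower and 2 higher in Damaged oocytes, and median log2 fold changes of -0.79 and -0.75. Of all genes, 34.2% were lower and 28.2% higher in MII, and 33.4% and 28.0% in Damaged oocytes. The counts of each list of markers stand beside these same shares. The 17 cumulus and granulosa markers with a count summed to 64.6 to 78.1 TPM in GV, 43.5 to 65.4 in MII and 49.2 to 59.9 in Damaged libraries. In normalised CPM the same sum was higher after culture without overlap, at 89.8 to 147 in GV, 174 to 295 in MII and 171 to 264 in Damaged libraries. The highest of them was *KITLG*, the KIT ligand, with 40.2 ± 4.57, 37.7 ± 9.89 and 44.6 ± 5.20 TPM. It had up to 5110 counts in a library and the others at most 412.3, so *KITLG* weighed most in both sums. *SERPINE2*, the next highest, had means of 21.2 TPM in GV, 7.80 in MII and 7.52 in Damaged libraries. In GV the means of *KITLG* and *SERPINE2* were above that of *FST* (15.4) and of each receptor among the members. *FSHR*, which defines granulosa cells, was at a mean of 0.495 TPM in GV, 0.0881 in MII and 0.109 in Damaged libraries, and *AMH* was at 0 in MII. Of 7 such markers tested, 3 rose (*KITLG*, *GATM* and *PTGS2*) and 1 fell (*HSD17B1*) in each comparison with GV. *FST*, *BMPR2*, *BMPR1B* and *TGFBR1* are known to be expressed by granulosa cells too, and the part of these cells in the results was not tested.

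The 7 blood and immune markers summed to 7.04 to 10.4 TPM in GV, 1.13 to 1.84 in MII and 1.64 to 2.12 in Damaged libraries, and to 25.1 in GV replicate 3. Their highest gene was *CD14* at a mean of 4.99 TPM in GV. Of 3 such markers tested, 2 fell and 0 rose in each comparison with GV, beside 34.2% (MII) and 33.4% (Damaged) of all genes lower. These were *CD14* in both, *CD3E* in MII and *CSF1R* in Damaged oocytes. The theca and stromal markers, 8 with a count, summed to 7.92 to 13.7 TPM in GV, 3.24 to 10.4 in MII and 4.01 to 15.7 in Damaged libraries, with *DCN* the highest. Of 3 theca and stromal markers tested, 0 passed in limma-voom or edgeR, and DESeq2 called 1 lower in Damaged oocytes. An unadjusted p under 0.05 was seen for 1 (MII) and 2 (Damaged). The part of such cells in the values of the members was not tested.

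The genes most like 3 of the members over the 14 libraries used were named by the highest Pearson r of log2 normalised CPM, as a description across libraries that share stage and depth. For *GDF9* these were *SKIC8* (r = 0.997), *MFSD2A* (0.995) and *PRDX3* (0.993), each with a larger fall in MII (-3.98, -3.93 and -3.82) than *GDF9* itself. For *BMP15* they were *CACTIN* (0.825), *ALG12* (0.812) and *WIF1* (0.793), and for *KIT* *ZFP91* (0.952), *SLC39A7* (0.905) and *TESK2* (0.892).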

How the data were processed

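Processed files of 15 pig libraries were used. The authors trimmed reads with AfterQC and made the estimated counts and the TPM values per transcript with Kallisto 0.43 (version per the submitters' processing notes) from the Ensembl cDNA of Sscrofa11.1. For genes, the authors used tximport (lengthScaledTPM), without further normalization. Such a gene count is the summed TPM times a mean transcript length, scaled to the library.

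In the gene table, name and total point to the same library for 8 columns, which served to find each gene's transcripts, and 7 columns were not used. The lengthScaledTPM formula, applied to the transcript file of each library, gave its gene counts. Among genes reaching 10 counts in 2 columns, 13641 of 13649 were placed. All 17844 genes placed together held 99.9897% to 99.9988% of the estimated counts of a library. Totals were 6.40 to 23.6 M, and intervals and floors of 3 counts cover counting error only.

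Groups came from the labels. The study describes independent collections, with oocytes of each group collected. The main tests took the libraries as unpaired, with a block on the replicate number as an alternative. Gene counts of 14 libraries (without GV replicate 3, of low depth, as in the study) were filtered with filterByExpr and scaled by TMM factors (edgeR 4.0.16), then tested with limma 3.58.1 (voom) in R 4.3.3 in a fit of the 3 groups, with Benjamini-Hochberg FDR over 13222 genes. Counts were rounded for DESeq2 1.42.0 and edgeR's quasi-likelihood test, used as alternatives. The fits were tested on simulated data with known changes before use.

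The members and lists were chosen with earlier results of these data known. Named genes are the 10 members, up to 3 genes of each list with the largest change in MII versus GV among those past the FDR in both comparisons with GV, the 3 genes most like *GDF9*, *BMP15* and *KIT*, and the highest markers. *KITLG*, *SERPINE2*, *GATM*, *PTGS2*, *HSD17B1*, *FSHR*, *AMH*, *CD3E* and *CSF1R* were named among the markers after their values were seen. Gene positions came from RefSeq by symbol. Tables and figures used Python 3.11.15, pandas 2.3.3, numpy 2.4.6, scipy 1.17.1 (exact permutation tests) and matplotlib 3.10.9.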

Additional observations from a re-analysis of the deposited data

Results flagged for a closer look

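With groups of 4 or 5 libraries chance sets apart about 1 in 20 groups. In the GV group, *TGFBR1* was at 16.8 normalised CPM in replicate 4 where the other 3 libraries used had 10.4 to 11.07. In the Damaged group, *FGF8* was at 0.0752 normalised CPM in replicate 2, a single count, where the other 4 libraries had 0.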

How the results depend on the processing

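*GDF9*, *BMP6*, *TGFBR1* and *FST* kept their direction and passed an FDR of 0.01 in both comparisons with GV under all 23 alternatives, with *GDF9* between -3.59 and -2.46 in MII. On library sizes without TMM factors, 1 member rose and 5 fell in each comparison with GV, and of the pathway genes 8 rose and 50 fell in MII and 7 rose and 48 fell in Damaged oocytes. *BMPR2* then turned to -0.25 in MII and -0.25 in Damaged oocytes, and *BMPR1B* to -0.33 and -0.47. This setting scales by totals alone, and the median of all genes moved with it. With a filter of 10 CPM, 1 member (*FST*) rose in each comparison, *BMPR2* and *BMPR1B* losing their calls, and 5 fell in MII, with *BMP15* and *KIT* added, and of fewer pathway genes tested 14 rose and 14 fell in MII and 16 rose and 15 fell in Damaged oocytes. On the 8 libraries with agreeing names, chosen after seeing the data, 1 member rose in each comparison and 18 pathway genes rose in Damaged oocytes, with fewer libraries in the fit.

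Leaving out 1 library at a time, 3 members rose and 3 to 4 fell in MII, and 2 rose and 3 fell in Damaged oocytes. Pathway genes that rose and fell numbered 27 to 33 and 24 to 32 in MII and 22 to 29 and 23 to 27 in Damaged oocytes, and 0 genes of either kind passed in MII versus Damaged. *BMP15* in Damaged oocytes lay between -0.22 and 0.053 and turned its sign to 0.011 without GV replicate 5 and to 0.053 without Damaged replicate 4. The ratio of *BMPR2* to *BMP15* in Damaged oocytes was past p = 0.05 in 2 of 9 such sets only, with exact permutation p values of up to 0.0714.

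With the replicate number as a block, *KIT* fell by 0.58 in MII with an FDR of 0.00948, which brought the members lower in MII to 4, and it changed no other member's call. In MII versus Damaged the block took the smallest FDR of any gene to 0.0232, with 0 genes past 0.01. The study describes independent collections with oocytes of each group collected, so libraries of different groups may be matched. The sources used here do not say that the replicate number marks a collection. Same-numbered libraries correlated between -0.10 and 0.32 over 13 pairs, with 3 over 0.1, and 9 of 14 libraries correlated best with their own number, a hint of pairing from the data, but not every pair was over 0.1, so the block was kept as an alternative. No test of transcript shares was run, since no transcript of a member had a mean share between 5 and 95%. Depth limits *FGF8* and *FGF10*, at most 19 counts in a library.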
